A study of Mus musculus with 88 samples.

Results

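A set of 9 secreted-factor genes linked to muscle, of 24453 genes counted, was followed across 9 tissues of mice lacking Cdh15 and of wild-type mice. The members were the genes whose symbol in the files is Fndc5, Metrnl, Il15, Mstn, Fst, Bdnf, Apln, Fam132a or Fam132b, and all 9 were found. Fam132a is the older symbol of C1qtnf12 (adipolin) and Fam132b that of Erfe (erythroferrone or myonectin). The list was chosen by gene name, and 2 of its names, Fam132a and Fndc5, were selected on low p values between the genotypes, so the genotype values of all members are given below as a description, and nothing is read from tests in that contrast. The rule names no difference between tissues, and these were tested. Tissue tests within KO share libraries with the genotype values.

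The mice were 10 males on the C57BL/6NTac background, 5 knockouts (KO) of Cdh15, which encodes the muscle adhesion molecule M-cadherin, and 5 wild types (WT). Both genotypes had a median age of 72 days (65 to 85 in KO and 65 to 83 in WT), and every mouse had been fasted for 18 h. Of each mouse 4 limb muscles (soleus, tibialis, gastrocnemius and the extensor digitorum longus, EDL) and 5 organs (spleen, lung, liver, kidney and heart) were collected, giving 88 libraries of polyadenylated RNA, 5 mice per group except WT kidney and WT spleen with 4. The labels name no part of Cdh15 that the allele lacks and no Cre or promoter. The series title places M-cadherin in adherens junctions, the formation of fetal muscle and the control of muscle mass, and the comparison of the genotypes is its question.

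Libraries held 8.21 to 25.1 M counts (median 19.02 M), and levels below are counts per M of the library total (CPM) as mean ± SD over mice unless stated. Summed markers matched the labelled tissues: 7 striated-muscle genes summed to between 43304 and 58630 CPM in the WT limb muscles and to at most 404 outside muscle and heart, and hepatocyte, kidney-tubule, lung-epithelium, heart-muscle and lymphocyte markers peaked in their own organs. Cdh15 was lower in all 4 KO muscles, by a log2 difference of -3.41 in tibialis, -2.92 in gastrocnemius, -2.77 in soleus and -2.71 in EDL (edgeR quasi-likelihood test, adjusted p = 8.95e-07, 5.18e-09, 0.000161 and 1.33e-07), and it was near 0 in the other organs. The soleus of KO mouse 3805666 stood apart: its summed fast-fibre genes (11 genes, Myh4 and Pvalb among them) reached 33578 CPM against 82002 to 104535 in the other 4 KO soleus libraries and 88868 to 143194 in WT, and its Myh4 was at 89.7 CPM. Its slow or oxidative-fibre genes (11 genes, Myh7 and Myh2 among them) summed to 41303 CPM, the highest of the 10. Slow sums were 17790 to 25753 CPM in the other 4 KO soleus libraries and 9886 to 20949 in WT. Their Myh4 was at 27368 to 38378 CPM in KO and 28331 to 65547 in WT. Only the soleus of mouse 3805666 had a slow sum above its fast sum, so fast-fibre RNA prevailed in all other soleus libraries. Whether this library or the others are nearer to pure soleus was not tested, so leaving it out does not mark it as faulty. Soleus differences of the members that include KO mice are given with and without mouse 3805666. Those of marker genes and partners include it unless stated.

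Myokines are proteins that muscle releases to act on itself or on other organs. Myostatin (Mstn) is a TGF-beta family ligand that restrains muscle growth through activin type II receptors and SMAD proteins, and follistatin (Fst) binds and blocks myostatin and activins. Fndc5 encodes the membrane precursor of irisin and is known in muscle and heart as a target of the coactivator PGC-1alpha. Metrnl (meteorin-like), Il15 (an interleukin best known for its action on natural killer and T cells) and Bdnf (a neurotrophin that signals through the receptor TrkB) are studied as exercise-linked factors, and apelin (Apln) acts on the G protein-coupled receptor Aplnr of blood vessels and heart. Fam132a and Fam132b belong to the C1q/TNF-related proteins (CTRPs): adipolin is described in fat as an insulin sensitizer, and erythroferrone lowers hepatic hepcidin by binding bone morphogenetic proteins.

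The genes lie, in mm10, on chr4:129137060-129144593 (Fndc5), chr11:121702427-121717389 (Metrnl), chr8:82331624-82402586 (Il15), chr1:53061663-53068079 (Mstn), chr13:114452262-114458951 (Fst), chr2:109675897-109727043 (Bdnf), chrX:48025146-48034852 (Apln), chr4:155962312-155966629 (Fam132a) and chr1:91366430-91374217 (Fam132b). The values are sums over the exons of each gene. RefSeq promoters of the same build (GRCm38.p6) were matched for 6 of the 9. The 250 bases before the RefSeq start are shown for the genes whose RNA was most tied to limb muscle (Mstn, Fam132b), for Fndc5 and, as a member with its highest level in lung, for Apln. Capitals mark matches to CANNTG, the E-box core bound by the myogenic factors. The windows are chr1:53061390-53061639 (plus strand), chr1:91366180-91366429 (plus), chr4:129136749-129136998 (plus) and chrX:48034854-48035103 (minus). RefSeq starts need not equal the gene bounds given above, and the Mstn and Fndc5 windows end some bases before those bounds.
Mstn: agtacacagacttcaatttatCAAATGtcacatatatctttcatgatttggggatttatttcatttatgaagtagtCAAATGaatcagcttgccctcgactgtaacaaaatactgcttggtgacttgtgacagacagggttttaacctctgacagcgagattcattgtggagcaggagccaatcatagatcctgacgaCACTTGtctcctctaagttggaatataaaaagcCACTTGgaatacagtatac
Fam132b: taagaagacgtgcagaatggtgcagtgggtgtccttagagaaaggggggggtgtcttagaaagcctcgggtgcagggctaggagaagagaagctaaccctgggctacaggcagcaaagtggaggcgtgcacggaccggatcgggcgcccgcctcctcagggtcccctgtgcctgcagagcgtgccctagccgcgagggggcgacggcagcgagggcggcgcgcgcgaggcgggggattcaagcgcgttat
Fndc5: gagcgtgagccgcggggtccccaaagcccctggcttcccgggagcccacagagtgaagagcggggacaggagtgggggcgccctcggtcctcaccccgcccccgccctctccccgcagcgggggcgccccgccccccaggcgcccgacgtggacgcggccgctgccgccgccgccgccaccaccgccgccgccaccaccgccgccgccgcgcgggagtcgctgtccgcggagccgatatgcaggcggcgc
Apln: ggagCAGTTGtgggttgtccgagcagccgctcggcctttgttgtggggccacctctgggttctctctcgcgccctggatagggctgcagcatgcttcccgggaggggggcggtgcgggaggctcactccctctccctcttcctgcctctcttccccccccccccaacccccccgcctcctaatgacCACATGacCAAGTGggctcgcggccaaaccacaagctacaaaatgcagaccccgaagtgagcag
Mstn held 4 CANNTG matches and Apln 3, whereas Fam132b and Fndc5 held 0. CANNTG is its own reverse complement, and 66.2% of 32851 RefSeq promoters of this length held at least 1. The motif TATAAA, read on both strands, was found in the Mstn window and in 12.4% of all windows, and ACGTG, the core of the hypoxia response element, in the Fam132b and Fndc5 windows and in 16.6% of all. The bases were 38.4% G or C in Mstn, 65.6% in Fam132b, 80.8% in Fndc5 and 65.2% in Apln. These are matches of letters in 1 window per gene.

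The 9 genes divided WT tissues between them when compared per length of transcript, as deposited RPKM, reads scaled to transcript length and library size. Mstn had the highest RPKM of the 9 in EDL (43.3), gastrocnemius (52.3) and tibialis (24.0), and made up 67.8%, 74.0% and 48.5% of their summed RPKM. Fndc5 led in soleus (36.1 RPKM, 47.8% of the sum, with Mstn second at 27.1) and in heart (90.5 RPKM, 80.9%, with Il15 second at 11.7). Fam132a led in kidney (36.1 RPKM, 68.8%), Bdnf in lung (8.09 RPKM, 27.9%), Il15 in spleen (4.65 RPKM, 37.8%) and Fst in liver (1.43 RPKM, 41.2%). The leading 2 genes were the same in KO as in WT in every tissue.

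**Figure D1:**
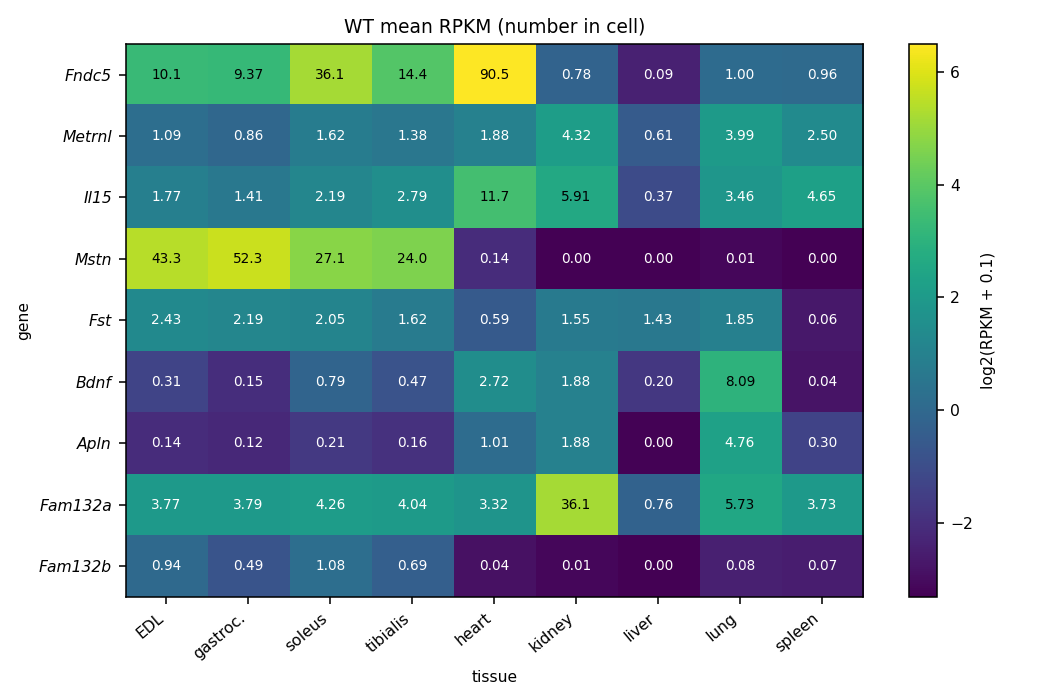
Mean RPKM of the 9 genes (rows) in the 9 WT tissues (columns), 4 or 5 mice per tissue. Mstn leads in EDL, gastrocnemius and tibialis, Fndc5 in soleus and heart, and Fam132a in kidney at 36.1 RPKM.

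**Figure D2:**
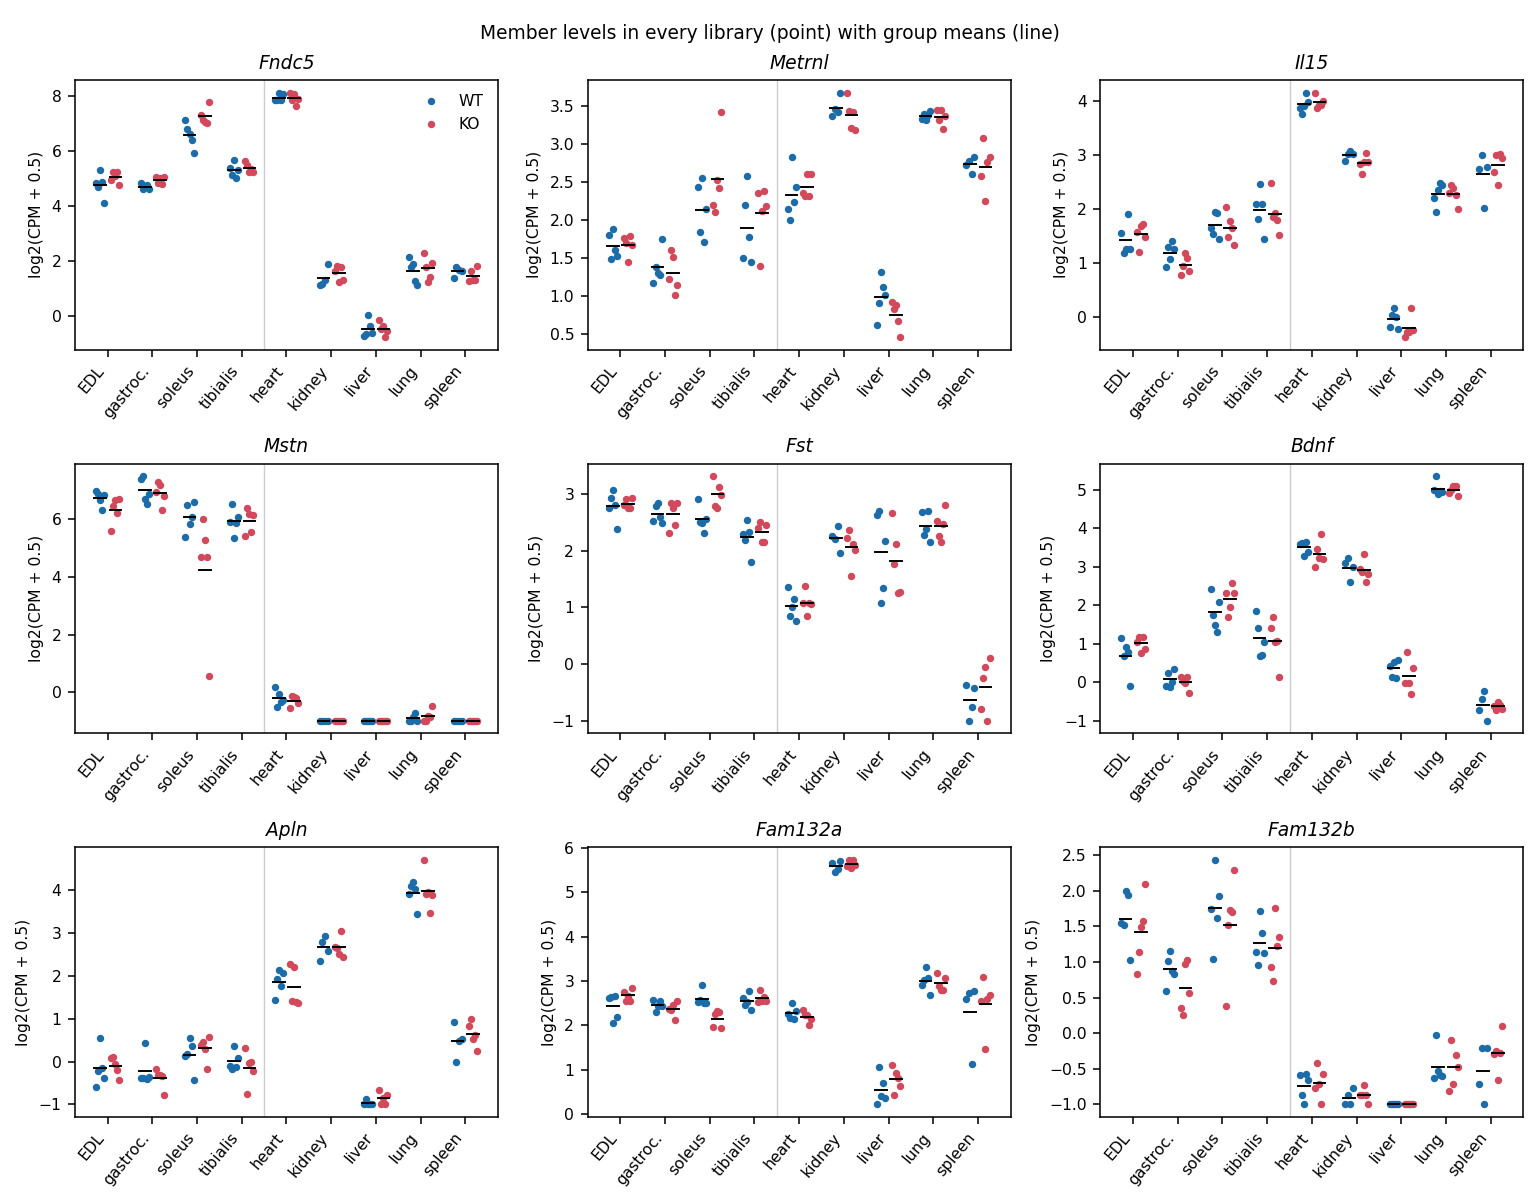
Level of each gene in every library as log2(CPM + 0.5), one panel per gene, by tissue, WT in blue and KO in red, with group means as bars. Mstn and Fam132b are high in the 4 limb muscles and at or near the floor in the organs, with KO soleus 3805666 (0.99 CPM of Mstn) as the exception, while Metrnl and Fam132a are found in all 9 tissues.

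Order of levels was tested between neighbouring tissues with edgeR (adjusted p under 0.05 over all genes). That test called between 11.8% and 84.2% of all genes in the 36 pairs of WT tissues and between 13% and 84.6% in KO, so a called pair of organs is common. Scaling matters between unlike organs. The tests used TMM factors, which set the typical gene equal, and scaling by library totals instead moved the median gene of limb muscle against lung by -1.47 in WT and -1.46 in KO (log2), against spleen by -1.33 and -1.34, against kidney by -0.70 and -0.72 and against heart by -0.36 and -0.34. Against liver the shift was -0.04 in WT and -0.03 in KO, and for soleus against the other muscles 0.10 and 0.17. A step between neighbours is called below only where it held under both scalings. In bulk tissue, fewer cells of a type and less RNA per cell cannot be told apart.

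Mstn was nearly confined to limb muscle among these 9 tissues. The 5 WT gastrocnemius libraries held 92.3, 105, 118, 167 and 181 CPM and those of EDL 80.4, 102, 116, 118 and 127. Soleus held 41.1, 57.4, 66.9, 90.2 and 98.0 CPM and tibialis 40.7, 57.7, 59.6, 66.9 and 92.1. The ranges of gastrocnemius and tibialis met without overlapping, and the other pairs of muscles overlapped. Heart held 0.376 ± 0.17 CPM (SD, n = 5) and no Mstn read was counted in kidney, liver or spleen of either genotype. Setting 3 counts per library as the limit that a count of 0 allows, limb muscle was at least 686-fold higher than kidney, 510-fold than liver and 370-fold than spleen in WT, and at least 517-, 395- and 276-fold higher in KO. Against heart the log2 difference was 8.21 (SE 0.35). Of the 8 steps down its order, 2 were called in WT, from tibialis to heart (64.4% of all genes differed there) and from heart to lung (76.4%).

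Fst, the inhibitor of myostatin, was spread more evenly. Its WT means ran from 4.28 ± 0.85 CPM in tibialis through soleus (5.43 ± 0.94) and gastrocnemius (5.78 ± 0.71) to EDL (6.5 ± 1.2; SD, n = 5), with 4.98 in lung, 4.18 in kidney and 3.87 ± 2 in liver. Liver was the most variable of these: WT livers held 1.62, 2.03, 4.02, 5.67 and 6.00 CPM and KO livers 1.88, 1.92, 2.92, 3.83 and 5.87. Of its 8 steps 2 were called, from liver to heart (1.56 CPM; 77.5% of all genes) and from heart to spleen (0.152 CPM; 80.2%). The ratio of Mstn to Fst RPKM, taken in each library, was 24.1 ± 7.4 in WT gastrocnemius, 18.6 ± 6.0 in EDL, 15.7 ± 6.6 in tibialis and 13.8 ± 5.4 in soleus (SD, n = 5), and the ranges overlapped.

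Fam132b followed limb muscle as Mstn did, at a lower level. WT soleus libraries held 1.57, 2.58, 2.84, 3.30 and 4.92 CPM, and the means were 2.63 in EDL, 1.95 in tibialis and 1.38 in gastrocnemius. Lung, spleen, heart and kidney were at or under 0.23 CPM in WT and liver at 0 in every library, so limb muscle was at least 12.2-fold higher than liver in WT and 10.3-fold in KO against 3 counts per library. The step from gastrocnemius to lung was the single one of 8 called, beside 84.2% of all genes.

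Fam132a had another profile than its relative. It was highest in kidney, where the 4 WT mice held 43.2, 45.6, 49.9 and 52.1 CPM and the 5 KO mice 46.6, 48.0, 48.2, 52.4 and 52.7. No other tissue came near: lung followed at 7.57 ± 1.3 CPM (SD, n = 5), the 4 WT limb muscles lay between means of 4.98 and 5.62, and liver was lowest at 1.0. Kidney was 47.6-fold above liver by CPM, and the fitted log2 difference was 4.81 with TMM factors and 5.49 with library totals. The step from kidney to lung (78.2% of all genes) and that from heart to liver (77.5%) were called, and no step from lung down to heart held under both scalings. Across groups with 1 CPM or more Fam132a varied least of the 9 genes, with a median coefficient of variation of 12.4% (18 groups).

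Fndc5 was highest in heart. WT hearts held 227, 227, 227, 266 and 277 CPM and KO hearts 198, 230, 236, 270 and 272, and no limb muscle reached these values in either genotype except the KO soleus of mouse 3805666 at 221. WT soleus followed with 60.4, 83.5, 95.9, 109 and 138 CPM, above tibialis at 38.9 ± 6.9, EDL at 27.4 ± 7.9 and gastrocnemius at 25.3 ± 1.7 (SD, n = 5). Lung, spleen and kidney held 2.12 to 2.69 CPM and liver 0.232. Of 8 steps, 4 were called: heart to soleus (63.9% of all genes), soleus to tibialis (11.8%), gastrocnemius to lung (84.2%) and kidney to liver (70.9%). The step from tibialis to EDL was called with the mouse as a block alone (edgeR, adjusted p = 0.027 against 0.0514 without it).

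Bdnf and Apln had their highest levels in lung. WT lungs held 29.0, 30.1, 30.8, 31.3 and 40.6 CPM of Bdnf, followed by heart at 10.9 ± 1.3, kidney at 7.5 ± 1.4 and soleus at 3.17 ± 1.2 (SD, n = 5, kidney n = 4), and each of these 3 steps was called (76.4%, 72.1% and 75.9% of all genes), as was gastrocnemius (0.567) to spleen (0.177; 80.2%). For Apln the WT lungs held 10.5, 14.6, 15.7, 16.6 and 17.6 CPM, kidney 5.91 ± 1.1, heart 3.19 ± 0.68 and spleen 0.933 ± 0.38, again with all 3 steps called (78.2%, 72.1% and 80.2% of all genes), and gastrocnemius to liver as the fourth (77.6%). Limb muscles held 0.38 to 0.648 CPM of Apln, a median of 7.5 counts per library over both genotypes, so differences between them rest on few reads.

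Il15 was highest in heart, where the WT values were 13.1, 14.2, 14.6, 15.4 and 17.4 CPM and the KO values 14.1, 14.7, 14.8, 15.6 and 17.4. Kidney (7.55 ± 0.42; n = 4), spleen (5.93 ± 1.7; n = 4) and lung (4.42 ± 0.69; n = 5) followed, and limb muscles held between 1.8 and 3.56 CPM. Metrnl had the flattest profile by CPM, 7.04-fold from its highest to its lowest WT tissue (a log2 difference of 2.11 with TMM factors and 2.78 with library totals), with 10.7 ± 1.1 CPM in kidney, 9.85 ± 0.32 in lung and 6.16 ± 0.43 in spleen against 2.13 to 4.01 in limb muscle and 1.52 in liver. The step from lung to spleen (79.7% of all genes) was the single called step of its order, whereas Il15 had 3: heart to kidney (72.1%), spleen to lung (79.7%) and gastrocnemius to liver (77.6%).

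Limb muscle, as the mean of its 4 muscles, was then set against each organ. In WT, 8 of the 9 genes differed from heart (73% of all genes did), 9 from kidney (81.1%), 9 from liver (81.4%), 8 from lung (87.4%) and 6 from spleen (83.8%), so the members' counts say little beside the background of all genes. KO mice gave 8 (74.3%), 9 (83.3%), 9 (81.8%), 8 (87.5%) and 7 (85.1%). By direction, WT limb muscle was higher than heart in 4 and lower in 4 (34% and 39% of all genes), than kidney in 4 and 5 (37.4% and 43.7%), than liver in 9 and 0 (43.1% and 38.3%), than lung in 6 and 2 (40.3% and 47.1%) and than spleen in 6 and 0 (40% and 43.8%), although library totals gave 3 and 5 for heart, kidney and lung and 5 and 3 for spleen. Heart divided the list: Fndc5 was lower in limb muscle than in heart by a log2 difference of -2.24 (SE 0.12), Il15 by -2.22 (0.11), Bdnf by -2.58 (0.16) and Apln by -2.34 (0.21), while Fst (2.15, SE 0.21), Fam132a (0.62, SE 0.14), Fam132b (4.60, SE 0.37) and Mstn were higher (edgeR, adjusted p at most 0.000104). With library totals Fam132a was at 0.26 against heart and lost its call (edgeR, adjusted p = 0.106), as did Fst against kidney (0.37, adjusted p = 0.0708). Kidney exceeded limb muscle in Fam132a (log2 -2.48, SE 0.11), Apln (-2.88, SE 0.20), Bdnf (-1.69), Metrnl (-1.15, SE 0.13) and Il15 (-0.88), and lung exceeded it in Bdnf (-3.01, SE 0.15) and Apln (-3.44, SE 0.18), all called and all also negative with library totals. Against lung, Il15 (0.64) and Fam132a (0.96) were higher in limb muscle with TMM factors and turned negative with library totals (-0.84 and -0.53), so the data give no direction for them. Fst (1.59 with TMM factors) was not among the 3 members called higher than lung with library totals. Its WT difference of soleus from lung was 1.51 with TMM factors and 0.11 with library totals (edgeR, adjusted p = 0.648). Against liver all 9 were higher in limb muscle. Leaving aside Mstn and Fam132b, which had no read there, the values ran from 0.54 for Fst (edgeR, adjusted p = 0.00672) to 7.36 for Fndc5.

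Within limb muscle the soleus, a small postural muscle rich in slow and oxidative fibres, was set against the mean of EDL, gastrocnemius and tibialis, which hold mostly fast fibres. In every WT soleus library here the fast-fibre sum (88868 to 143194 CPM) exceeded the slow or oxidative one (9886 to 20949). In WT, 2 of the 9 genes were called, both higher in soleus, beside 20.5% of all genes (12.8% higher, 7.7% lower). Fndc5 was higher by 1.60 on the log2 scale (SE 0.16; edgeR, adjusted p = 4.65e-07), and the WT soleus values, from 60.4 CPM upward, lay above every WT library of the other 3 muscles, whose highest was 49.5. Bdnf was higher by 1.45 (SE 0.25, edgeR, adjusted p = 0.000241), with WT soleus values of 1.98, 2.34, 2.84, 3.79 and 4.89 CPM. The other 7 did not pass: Mstn was at -0.55 (SE 0.21; adjusted p = 0.0666), Fam132b at 0.57 (0.0517), Metrnl at 0.49 (0.0503), Apln at 0.45 (0.422), and Il15, Fst and Fam132a between -0.10 and 0.11. With the mouse as a replicate block these counts moved: 5 genes were called beside 27.8% of all genes, with Fam132b at 0.54 (adjusted p = 0.0102), Metrnl at 0.48 (0.0274) and Mstn at -0.55 (0.0316) added in edgeR. Leaving out WT mouse 3793543 took the calls over all genes from 2698 to 1498, and Fndc5 (1.47) and Bdnf (1.38) were still called.

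The same contrast in the separate KO mice called 7 of the 9, beside 53.6% of all genes (5 higher and 2 lower, beside 27.4% and 26.3%). Fndc5 was at 2.01 (SE 0.10), Bdnf at 1.72 (0.19) and Metrnl at 0.86 (0.17), and Apln (0.83) and Fst (0.26) were also higher in soleus, whereas Mstn (-1.61, SE 0.49) and Fam132a (-0.59, SE 0.09) were lower (edgeR, adjusted p from 2.65e-12 for Fndc5 to 0.0247 for Fst). Il15 (0.06) and Fam132b (0.48) were not called. The KO soleus libraries also enter the genotype values on which Fam132a and Fndc5 were selected. The KO calls of these genes are therefore a description, and nothing is read from them. In WT, Fam132a was at 0.05 and Fndc5 at 1.60. The calls of Fst and Apln rest on single mice: Fst lost its call without KO mouse 3779417 (edgeR, adjusted p = 0.154) or 3805676 (0.136), and Apln without 3793546 (0.0504) or 3805666. Without the KO mouse 3805666, 6 remained called beside 43.2% of all genes: Apln was at 0.59 (edgeR, adjusted p = 0.11), Metrnl went from 0.86 to 0.53, Mstn to -1.27 (SE 0.32) and Fam132a to -0.50. Fndc5 was then at 1.84, Bdnf at 1.57, Fst at 0.31, Fam132b at 0.31 and Il15 at 0.10. Whether WT and KO differ in this contrast was not tested, since that difference is the genotype contrast in another form.

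**Figure D3:**
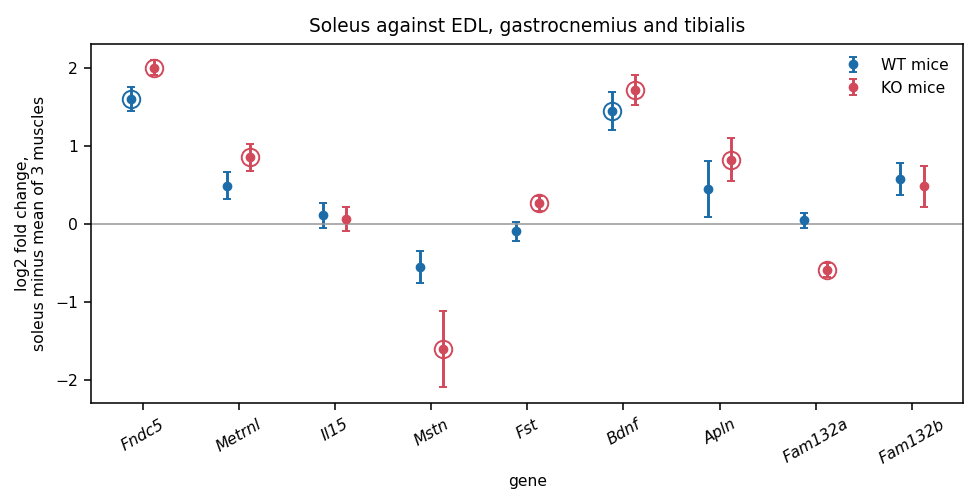
Soleus against the mean of EDL, gastrocnemius and tibialis for each gene, as log2 difference with its standard error, in 5 WT and 5 KO mice. Rings mark adjusted p under 0.05: Fndc5 and Bdnf in both genotypes, and in KO also Metrnl, Apln, Fst, Mstn and Fam132a. The KO rings of Fndc5 and Fam132a are a description only.

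The other 3 muscles were compared in pairs. Between gastrocnemius and tibialis in WT, 4 members were called beside 22.1% of all genes: Mstn (1.10, SE 0.25) and Fst (0.49) were higher in gastrocnemius, and Il15 (-0.93) and Bdnf (-1.69, SE 0.36) lower (edgeR, adjusted p = 0.0045, 0.0283, 0.00315 and 0.00281). Bdnf thus ran from 0.567 CPM in gastrocnemius through 1.18 in EDL and 1.82 in tibialis to 3.17 in soleus, a 5.59-fold span and the widest of the 9 within limb muscle, while Fam132a spanned 1.13-fold. In KO the calls between gastrocnemius and tibialis were Il15 (-1.12), Bdnf (-1.66), Metrnl (-0.91), Fndc5 (-0.42) and Fst (0.39), beside 28.2% of all genes. EDL against tibialis gave Il15 (-0.68) and Fst (0.58) in WT (13% of all genes) and Fndc5 (-0.42) and Fst (0.46) in KO (13.3%). EDL against gastrocnemius gave Fam132b (0.86, SE 0.26) in WT (13.2%) and Bdnf (1.43) and Il15 (0.59) in KO (21.2%). Fst was thus called in both genotypes in 2 of these 3 pairs, and Mstn in WT gastrocnemius against tibialis alone. The mouse as a replicate block moved 2 counts in WT, from 1 to 2 for EDL against gastrocnemius and from 2 to 4 for EDL against tibialis, and single libraries moved the counts between EDL and the other muscles (values in the closing section).

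The genotype values are descriptive, since they chose 2 of the members. In edgeR, 0 members were called between KO and WT in each of the 9 tissues, beside 0.0081% of all genes in tibialis, 0.00792% in gastrocnemius, 0.00777% in EDL and 0.00771% in soleus (1 gene each, Cdh15) and 0% in the other 5 tissues. At an unadjusted p under 0.05 there were 3 members in soleus, beside 17.2% of all genes, and 1 in gastrocnemius, beside 1.95%. These counts draw on the values that the choice of members used. DESeq2 also called 0 members, but in soleus it gave an adjusted p to only 2 of the 9 (and to 2659 genes in all, of which it called 165), so its 0 there says nothing of the other 7. The tested members numbered 9 in soleus, 8 in each of the other limb muscles, 7 in heart, kidney and lung, 5 in spleen and 4 in liver, the rest being too low.

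Soleus held the widest genotype values. Mstn was at 41.1, 57.4, 66.9, 90.2 and 98.0 CPM in WT and at 0.99, 25.5, 25.7, 38.5 and 64.2 in KO, a log2 difference of -1.21 (SE 0.68). The lowest of these values, 22 counts in all, came from mouse 3805666, whose EDL, gastrocnemius and tibialis held 104, 113 and 70.2 CPM, and the groups overlapped. Leaving out each of the 10 mice in turn moved the value between -1.72 and -0.90, the last without mouse 3805666. Fndc5 was at 129, 132, 139, 157 and 221 CPM in KO soleus against 60.4 to 138 in WT, a log2 difference of 0.62 (SE 0.21; 0.48 to 0.76 leaving out single mice and 0.48 without 3805666), and the groups overlapped between 129 and 138. Fam132a was at 3.33, 3.38, 4.29, 4.39 and 4.51 CPM in KO soleus and at 5.16, 5.20, 5.22, 5.49 and 7.06 in WT, a log2 difference of -0.55 (SE 0.14; -0.60 to -0.47 leaving out single mice and -0.48 without 3805666). It was the 1 member of 8 at 1 CPM or more whose groups did not overlap there, beside 3.3% of 12052 genes in either direction and 1.24% with KO below WT. Since Fam132a was selected on low p values between the genotypes, nothing is read from this separation. In the other 8 tissues 0 members had separate groups, beside 0.235% (liver) to 1.14% (kidney) of genes.

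Fst was at 6.26, 6.44, 7.38, 8.19 and 9.46 CPM in KO soleus against 4.50, 5.09, 5.17, 5.39 and 7.01 in WT, a log2 difference of 0.42 (SE 0.14; 0.44 without mouse 3805666). The ratio of Mstn to Fst RPKM was 4.35 ± 3.6 in KO soleus (0.135 to 9.63) against 13.8 ± 5.4 in WT (5.68 to 19.4; SD, n = 5), overlapping, and 5.41 ± 3.2 without that mouse (SD, n = 4), while in gastrocnemius it was 22.8 ± 5.1 against 24.1 ± 7.4. Metrnl was at 0.44 (SE 0.27), and at 0.12 without mouse 3805666, whose 10.2 CPM was the highest soleus value. Bdnf was at 0.33 (SE 0.24), Apln at 0.18 (0.35), Il15 at -0.11 (0.19) and Fam132b at -0.25 (0.37). Without mouse 3805666 these were 0.30, 0.08, -0.01 and -0.50. Leaving out each of the 10 mice in turn moved Bdnf between 0.20 and 0.51, Apln between -0.05 and 0.38, Il15 between -0.23 and -0.01 and Fam132b between -0.50 and -0.02, so 1 mouse decides the size of these 4 values and the sign of Apln.

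**Figure D4:**
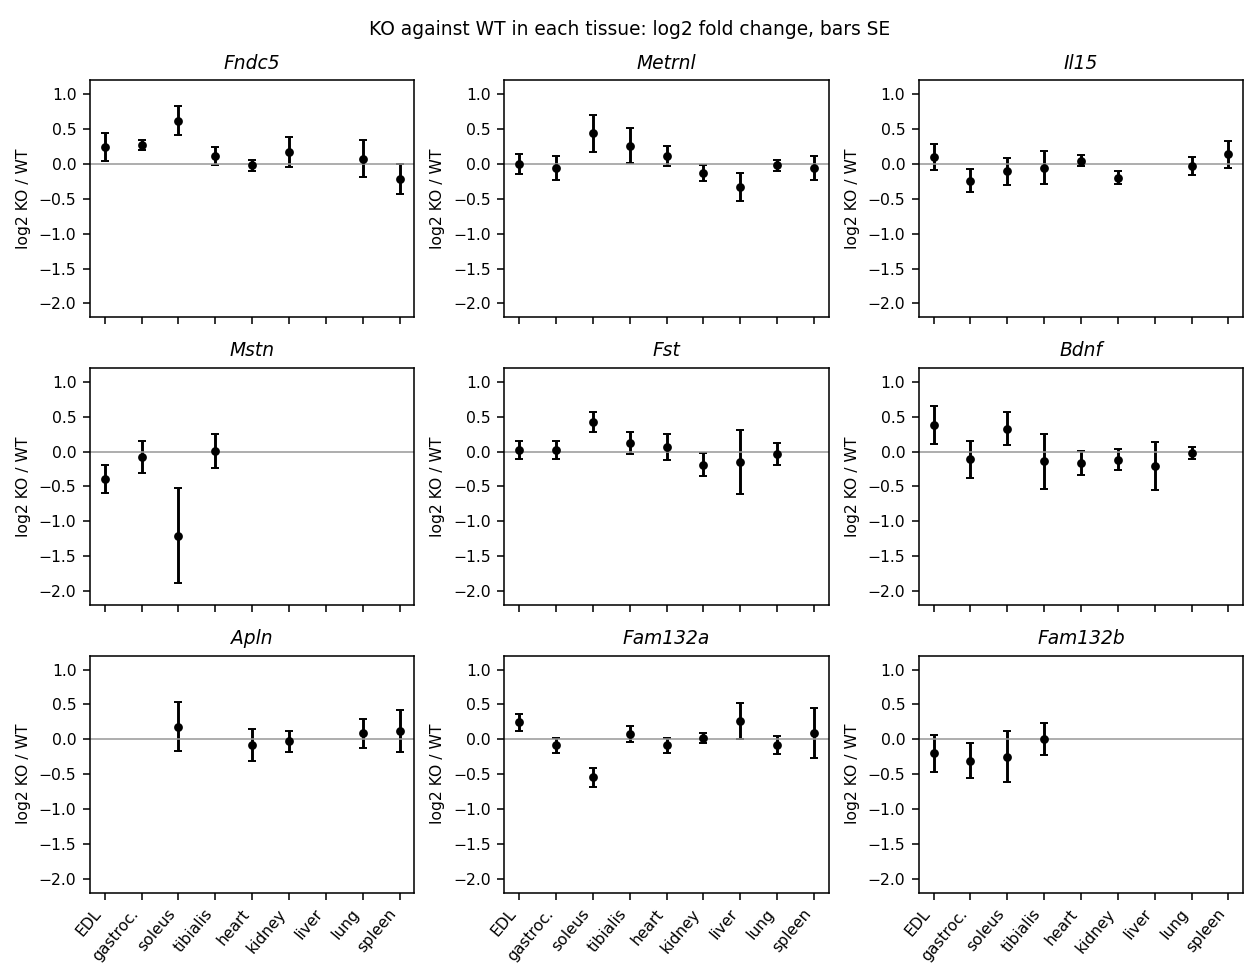
Log2 difference KO minus WT with its standard error for each gene in each tissue where it was tested, as a description. The largest in size is Mstn in soleus at -1.21, and Fam132a in kidney (0.02) and Fndc5 in heart (-0.02) lie near 0.

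For Mstn, Fndc5 and Fam132a the other limb muscles gave values smaller in size than soleus. Mstn was at -0.40 (SE 0.20) in EDL, -0.08 (0.23) in gastrocnemius and 0.01 (0.24) in tibialis. Fndc5 was at 0.24 (0.20), 0.27 (0.07) and 0.11 (0.13), positive in all 4 limb muscles, and at -0.02 (0.08) in heart, its tissue of highest level. Fam132a was at 0.25 (0.12) in EDL, -0.09 (0.10) in gastrocnemius and 0.08 in tibialis, opposite in sign to soleus in EDL and tibialis. In kidney, where it is highest, Fam132a was at 0.02 (0.07). Bdnf in lung was at -0.02 (0.09), Apln in lung at 0.09 (0.21) and Il15 in heart at 0.04 (0.08). Elsewhere the values of size above 0.3 were Metrnl in liver at -0.33 (0.20), Bdnf in EDL at 0.38 (0.27) and Fam132b in gastrocnemius at -0.31 (0.25).

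Fibre-type genes were read beside these soleus values. Summed fast-fibre genes ranged from 33578 to 104535 CPM in KO soleus and from 88868 to 143194 in WT, and 10 of the 11 had a negative log2 difference (median -0.53), whereas all 11 slow or oxidative-fibre genes had a positive one (median 0.93) and the median of all genes was 0.02. No fibre-type gene was called, and these medians include mouse 3805666. Within the WT group, mouse 3793543 had the lowest fast-fibre sum and also the highest Fndc5, Bdnf and Fst and the lowest Mstn. Its Metrnl, Il15, Apln, Fam132a and Fam132b lay inside the range of the other WT mice. Within KO, mouse 3805666 had the lowest fast-fibre sum. It had the highest Fndc5, Metrnl, Apln and Fam132b and the lowest Mstn, Fam132a and Il15, while its Fst and Bdnf lay inside the range of the other KO mice. Markers of other cells were read as well. The 6 macrophage genes summed to 66.2 to 164 CPM in KO soleus and 47.5 to 92.5 in WT, and all 6 had a positive log2 difference (median 0.63). All 7 endothelial genes (197 to 425 CPM in KO, 160 to 316 in WT; median 0.22), all 7 nerve-sheath genes (median 0.22) and 7 of 8 adipocyte genes (median 0.31) were positive as well, and no gene of these 4 lists was at 0 in soleus or was called. The medians of these lists also include mouse 3805666. The part of fibre type or of these other cells in the member values was not tested.

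**Figure D5:**
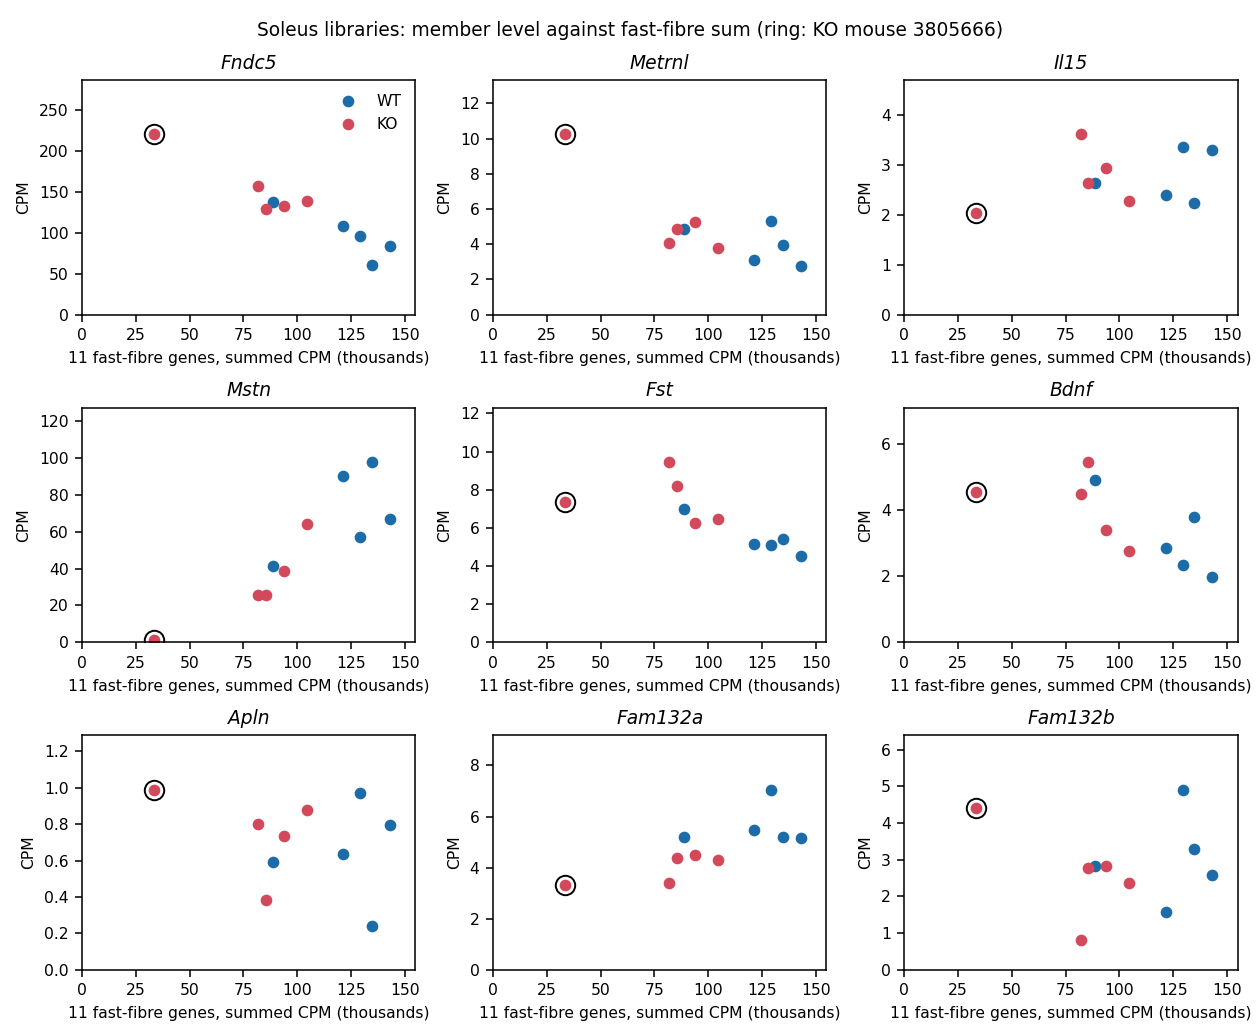
CPM of members in each of the 10 soleus libraries against the summed CPM of 11 fast-fibre genes, WT in blue and KO in red, with KO mouse 3805666 ringed. The ringed library has the lowest fast-fibre sum, 33578 CPM, the highest Fndc5 and the lowest Mstn.

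Partners of the 9 genes were read from lists of receptors, binding proteins and related ligands, in the contrast of soleus with the other 3 WT muscles. Of 18 tested genes of the myostatin and activin axis edgeR called 0. At an unadjusted p under 0.05 there were 5, beside 32.5% of all genes, and with the replicate block 4 were called, all lower, beside 27.8%. The smallest p belonged to Furin, a protease that processes the precursor (-0.21), and Ltbp3, a latent TGF-beta binding protein (0.13; edgeR, adjusted p = 0.0976 and 0.0998). The list's median was -0.13 beside 0.00 over all genes. In KO 1 was higher and 9 lower, beside 27.4% and 26.3% of all genes (1 and 6 without mouse 3805666, beside 43.2% called in either direction). The BDNF axis had 1 lower of 6, Sort1, the sorting receptor sortilin (-0.58, SE 0.14; adjusted p = 0.00523 in edgeR), while Ntf3, another neurotrophin, was at 0.29 and not called.

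The apelin list had 2 higher of 4 tested (median 0.46): Vegfa, an angiogenic ligand, at 0.49 (SE 0.11) and Hif1a, the oxygen-regulated transcription factor, at 0.24 (edgeR, adjusted p = 0.00331 and 0.0243). In the interleukin 15 list 1 was higher and 1 lower of 6, the signalling kinases Jak3 (0.83, SE 0.16) and Jak1 (-0.39). The erythroferrone and hepcidin list had 2 higher of 8, Id1, a target of bone morphogenetic proteins (1.13, SE 0.14), and the ligand Bmp6 (0.63), and its most abundant gene anywhere was Hamp, which encodes hepcidin, at 821 RPKM in liver. Irisin partners had 2 higher of 7, the integrin Itgav (0.37) and the nuclear receptor Esrra (0.50).

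The meteorin list had 1 higher of 3, Kitl, the ligand of Kit (0.74, SE 0.12), with Kit itself at -0.27 and not called. Among 12 CTRPs and adiponectin receptors 1 was higher and 2 lower, with C1qtnf9 at 0.60 and the receptor Adipor1 at -0.21 (edgeR, adjusted p = 0.00198 and 0.00744), although with library totals 2 were higher and 0 lower. Of 9 other secreted factors 3 were higher (median 0.27), led by Ostn, the peptide osteocrin or musclin (1.12, SE 0.17; adjusted p = 7.1e-05 in edgeR), and Angptl4 (0.40). Medians and counts of these short lists stand beside 12.8% of all genes higher and 7.7% lower.

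Receptors are set beside their ligands as WT means. Aplnr was highest in lung, 47.1 CPM, as its ligand was, and next in heart at 18.4 CPM. Ntrk2, which encodes TrkB, was at 9.37 to 12.7 CPM in limb muscle and 11.4 in lung but 2.56 in heart, the tissue of second highest Bdnf. Il15ra was highest in liver at 23.2 CPM, where Il15 was lowest (0.475 CPM). Acvr2b, a receptor of myostatin, lay between 3.28 and 3.99 CPM in limb muscle and at 3.98 in kidney, where no Mstn was counted.

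In KO against WT soleus the list genes of smallest p, given as values alone, were Gdf11, the closest relative of myostatin (-1.0, SE 0.29), Sort1 (-0.78, SE 0.35), Aplnr (0.50, SE 0.38), Il2rg, a receptor chain shared with interleukin 15 (0.80, SE 0.27), Smad5 (-0.17, SE 0.08), Itgav (0.18, SE 0.07), Kit (0.50, SE 0.24), Adipor1 (-0.27, SE 0.10) and Postn, a matrix protein (1.03, SE 0.20). None was called.

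The genes whose levels were most like each member over the 88 libraries were named by Pearson's r of log2(CPM + 0.5), as a description of libraries that share mice and tissues. Mstn was nearest to Actn3, the fast-fibre actinin (r = 0.990), with Eya4 and Atp2b3 at 0.989. Fam132b was nearest to Myf5, a myogenic factor (0.952), Agbl1 (0.942) and the fast myosin Myh1 (0.941). Fndc5 was nearest to Egln1, an oxygen-sensing prolyl hydroxylase (0.978), C1qtnf9, another CTRP (0.968), and Adprhl1 (0.967). Apln resembled Galnt18 (0.975) and Usp43 (0.967), and Bdnf was nearest to Fzd6 (0.945), Wscd1 (0.941) and Ptprg (0.937).

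Fam132a was nearest to Mtmr11 (0.949), Aif1l (0.939) and the endocytic adaptor Dab2 (0.928). Metrnl was nearest to Nhsl2 (0.930), St6galnac2 (0.923) and Eps8 (0.922), and Il15 to Rap1gap2 (0.930), Ppm1e (0.924) and Sncaip (0.914). Fst had the loosest neighbours, Klf9 (0.887), Pcyt1a (0.877) and Uhrf1bp1 (0.875). C1qtnf9, like Fndc5, was higher in heart than in soleus and higher in soleus than in the other limb muscles. Its WT means were lower, at 41.2 CPM in heart, 20.9 in soleus and 10.9 to 16.8 in the other limb muscles. Those of Fndc5 were 245, 97.4 and 25.3 to 38.9 CPM. With the 43 WT libraries alone 14 of the 27 names were found again.

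Spread between mice differed among the genes. Over groups with a mean of 1 CPM or more, the median coefficient of variation was 28.8% for Mstn (16.6% to 74.3%, the highest in KO soleus) and 35.7% for Fam132b, against 12.4% for Fam132a and 16.6% for Il15. Counts behind the limb-muscle values ran from medians of 7.5 (Apln), 27.5 (Bdnf) and 34.5 (Fam132b) per library to 624 (Fndc5) and 1457.5 (Mstn), so values of the first 3 genes carry more counting error than those of the last 2.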

How the data were processed

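Total polyadenylated RNA was sequenced with a stranded kit, per the labels' protocols. The deposited tables give, per gene and library, expected counts (85.55% whole numbers, rounded here) and RPKM made by the authors. The build was mm10, per the submitters' processing notes; the aligner, counter and use of strand are not given in the sources used here. RPKM served only to compare genes with each other. Rows that name no gene (22 rows, at most 0.0323% of counts) were left out, and 0 columns were unmapped.

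CPM are counts over library totals. Tests used edgeR 4.0.16 in R 4.3.3 (quasi-likelihood, TMM, robust, filterByExpr with a minimum count of 10), with Benjamini-Hochberg adjustment over all genes tested and a threshold of 0.05. The scripts were tested on simulated data. KO and WT were compared per tissue, muscles in a fit of 20 libraries per genotype, and organs in a fit of 9 tissues per genotype. DESeq2 1.42.0, other scalings, no filter, age as a covariate and single mice left out were alternatives, and library totals were added after the data were seen. The same mouse gave all tissues, per the animal number in the labels. Same-mouse muscles deviated from their group means with a mean r of 0.19 (60 pairs, -0.049 to 0.48), and all 344 tissue pairs with 0.073. No 2 replicates agreed within sampling noise. The p-values between genotypes measure spread between 5 mice per group (4 in WT kidney and spleen). Those between tissues rest on libraries of the same 5 mice per genotype, treated as independent except where the mouse was a block.

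All 9 genes are named, with the 3 genes of highest r for each (1 of these is not reported here), and of each list the 2 genes of smallest p in WT soleus against other muscles, the gene of smallest p in KO soleus and genes picked by level. Members and lists were chosen with earlier results of these data known. Receptors named for their levels beside their ligands and C1qtnf9's levels were chosen after their values were seen. Counting intervals and floors (3 counts) cover counting error only.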

Additional observations from a re-analysis of the deposited data

Results flagged for a closer look

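In 119 groups of 4 or 5 libraries the extreme library was compared with the others, and 4 stood out by more than Dixon's 95% limit; chance flags about 1 in 20 groups. Metrnl in the KO soleus of mouse 3805666 was at 10.2 CPM, against 3.81 to 5.25 in the other 4. Bdnf in the WT lung of mouse 3805657 was at 40.6 CPM, against 29.0 to 31.3. Apln in the KO lung of mouse 3779417 was at 25.6 CPM, against 10.6 to 14.9. Fam132a in the WT soleus of mouse 3817948 was at 7.06 CPM, against 5.16 to 5.49.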

How the results depend on the processing

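Counts of members called between KO and WT were 0 in all 9 tissues under every alternative run, where DESeq2 gave only 2 of the 9 members an adjusted p in soleus, and counts of limb muscle against organs stayed within 1.5 times of those reported. With the mouse as a replicate block the counts became 5 in place of 2 for soleus against the other WT muscles, 2 in place of 1 for EDL against gastrocnemius in WT and 4 in place of 2 for EDL against tibialis in WT, and no other count moved by over 1.5 times. DESeq2's Wald test gave 5 for the WT soleus and 4 for WT EDL against tibialis, and library totals gave 4 for the WT soleus. For KO EDL against gastrocnemius (2), DESeq2 size factors gave 1, no filter 1 and library totals 4; for KO EDL against tibialis (2), library totals and no filter gave 1 each. Leaving out single mice gave 1 to 2 for KO EDL against gastrocnemius (1 without 3793546, 3805666, 3805676 or 3817943) and 0 to 2 in WT (0 without 3793543 or 3805673, 2 without 3793553). It gave 0 to 1 for KO EDL against tibialis (0 without 3805676 or 3817943, otherwise 1) and 0 to 2 in WT (0 without 3805657; 1 without 3793543, 3805673 or 3817948). It gave 2 to 5 for KO gastrocnemius against tibialis (2 without 3805676, 3 without 3793546 or 3817943), 3 to 4 in WT, and 6 to 7 and 2 to 3 for the KO and WT soleus, where Fst and Apln lost their KO calls without different mice. Library totals turned limb muscle against lung to -0.90 (KO) and -0.84 (WT) for Il15 and -0.53 in both for Fam132a, and against spleen to -0.86 and -1.07 for Metrnl, -1.25 and -1.04 for Apln, -0.0733 for Fam132a in KO and -1.24 for Il15 in WT. Lung and spleen were the organs where this scaling moved the median gene most. With WT libraries alone 14 of the 27 most similar genes were found again. Low counts of Apln, Bdnf and Fam132b limit what their differences can show.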
